A study of Rattus norvegicus with 12 samples.

Results

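The genes that make sterols and isoprenoids were followed through 12 RNA-sequencing libraries of ND7/23 cells. They are the 42 genes, of 21556 in the deposited table, whose pathway annotation names steroid biosynthesis (20 genes) or terpenoid backbone biosynthesis (22 genes) of the KEGG database, a rule that reads the annotation and was set with earlier results of these data known. ND7/23 is a rat dorsal root ganglion neuron and mouse N18Tg2 neuroblastoma hybrid that serves as a sensory neuron model. The 4 groups, with 3 libraries each, were control, menthol at 100 μM, Wnt3a at 100 ng/ml, and the combination, all collected at 6 h. Menthol opens the cold receptor TRPM8, and Wnt3a is a secreted protein that stabilizes β-catenin. The comparisons ask what each agent does alone and whether menthol changes the response to Wnt3a.

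The study's methods describe menthol stimulation in DMEM with penicillin/streptomycin, without naming serum, and menthol was stored in DMSO. Whether the control cells received vehicle, whether the sequenced cells had been differentiated, and whether libraries of a group came from separate cultures are not given in the sources used here, so the p-values measure only the spread between these libraries. The values are FPKM, fragment counts divided by the length of the gene and the size of the library, and 36914722 to 38837023 reads fell on genes in each library. Of 14 neuron markers, 2 had a mean of at least 0.5 FPKM. *Tubb3*, a neuronal tubulin, reached at most 0.0922 FPKM and *Prph*, the peripheral neuron filament, at most 0.097 FPKM, whereas *Uchl1* lay between 94.2 and 112 FPKM and the sensory lineage factor *Isl1* between 9.28 and 17.6 FPKM. The fibroblast marker *Col1a2* lay between 109 and 127 FPKM. The values are those of reads assigned to rat genes, and how reads from the mouse chromosomes of the hybrid were assigned is not given in the sources used here.

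Cells build cholesterol and all isoprenoids from acetyl-CoA through mevalonate. Farnesyl diphosphate stands at the branch point, and from there carbon goes to squalene, lanosterol and cholesterol or to geranylgeranyl, dolichol and ubiquinone chains and to lipid anchors on proteins. When sterol in the endoplasmic reticulum is low, SCAP carries the transcription factor SREBP-2 to the Golgi, where it is cleaved, and the released part raises nearly every enzyme of the route. The promoters of these genes are known for SREBP sites next to sites for NF-Y, which binds the letters CCAAT, and for Sp1, which binds GC boxes.

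The route was strongly expressed. The median level of the 37 genes with a mean of at least 0.5 FPKM was 43.4 FPKM, against 10.35 FPKM over the 11451 genes of the whole table above the same limit, and 10 of the 37 were among its 1000 highest genes. The members together took 0.823% ± 0.00193 (SD, n = 3) of the reads on genes in control cells, 0.810% ± 0.0144 with menthol, 0.818% ± 0.0153 with Wnt3a and 0.803% ± 0.00817 with both. All libraries with menthol alone (0.793% to 0.819%) and with both agents (0.7935% to 0.809%) were below the lowest control library at 0.822%. The Wnt3a libraries ran from 0.80% to 0.828%, from below the controls to above them. The plot of levels by role shows that the 12 libraries of most genes lay almost on top of each other.

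**Figure D1:**
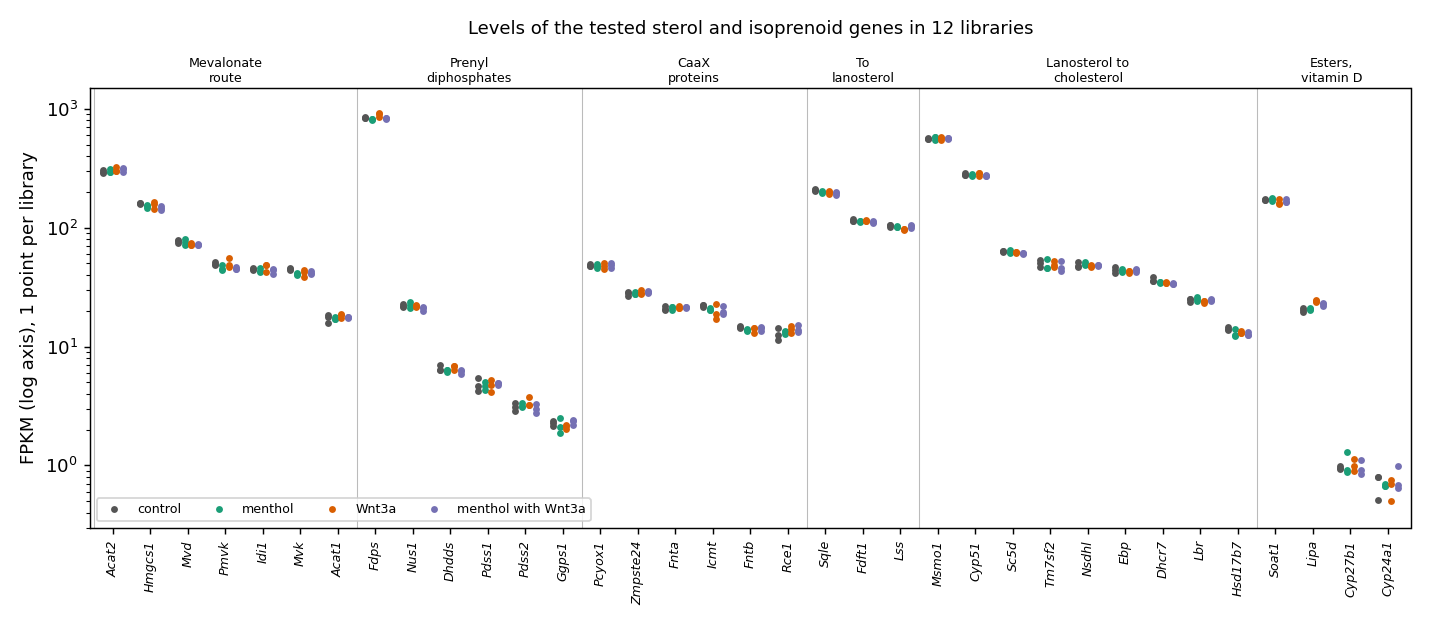
FPKM on a log axis of 35 of the 37 tested sterol and isoprenoid genes, grouped by their step in the route and ordered by level within it, with 1 point per library colored by group. Levels run from 848 FPKM (*Fdps*) to 0.701 FPKM (*Cyp24a1*). For 26 of the 37 genes the highest library was less than 1.2 times the lowest, which held for 45.3% of all tested genes. At a mean of at least 10 FPKM it held for 25 of 31 members and for 72.4% of all genes at that level.

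*Fdps*, farnesyl diphosphate synthase at the branch point, had the highest mean level at 848 FPKM, rank 80 of all genes. In the mevalonate route, the acetoacetyl-CoA thiolase *Acat2* (303 FPKM) and the HMG-CoA synthase *Hmgcs1* (153 FPKM) stood above mevalonate diphosphate decarboxylase *Mvd* (74.4 FPKM), phosphomevalonate kinase *Pmvk* (48.0 FPKM), isopentenyl diphosphate isomerase *Idi1* (44.6 FPKM), mevalonate kinase *Mvk* (42.3 FPKM) and the mitochondrial thiolase *Acat1* (17.6 FPKM). *Acat2l1*, annotated beside *Acat2* as a like gene, held 13 to 31 reads per library, so how reads were divided between the pair is uncertain. The steps to lanosterol were squalene epoxidase *Sqle* (200 FPKM), squalene synthase *Fdft1* (114 FPKM) and lanosterol synthase *Lss* (101 FPKM). From lanosterol to cholesterol, the methyl sterol oxidase *Msmo1* (565 FPKM) and the lanosterol demethylase *Cyp51* (280 FPKM) were highest. *Sc5d*, *Tm7sf2*, *Nsdhl*, *Ebp*, *Dhcr7*, *Lbr* and *Hsd17b7*, which isomerize, desaturate, reduce or demethylate the sterol, had means between 13.2 and 62.1 FPKM.

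Genes of the branches away from cholesterol ranged widely. *Nus1* and *Dhdds*, the subunits of the enzyme that makes the dolichol chain, had means of 21.8 and 6.39 FPKM. *Pdss1* and *Pdss2*, the subunits that make the ubiquinone side chain, had 4.76 and 3.18 FPKM, and the geranylgeranyl diphosphate synthase *Ggps1* had 2.21 FPKM. The genes of protein farnesylation and of the trimming, methylation and turnover of farnesylated ends, *Fnta*, *Fntb*, *Zmpste24*, *Rce1*, *Icmt* and *Pcyox1*, lay between 13.5 and 48.1 FPKM. The cholesterol esterifying enzyme *Soat1* reached 170 FPKM and the lysosomal acid lipase *Lipa*, which frees cholesterol from esters taken up by the cell, 22.0 FPKM, and the vitamin D hydroxylases *Cyp27b1* (0.990 FPKM) and *Cyp24a1* (0.701 FPKM) were near the lower limit.

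The 5 members below the limit were not tested. *Cyp2r1*, a vitamin D 25-hydroxylase, held 79 to 154 reads per library, *Acat2l1* 13 to 31 and the bile salt-activated lipase *Cel* 2 to 15. *Soat2*, the esterifying enzyme of liver and intestine, held 0 to 3 reads, and 3 counts were taken as the floor of a library, for counting error only.

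The 250 bases before the annotated start were read from RefSeq sequences of the GRCr8 build for 32 of the 42 members, while the deposited values were made on the build mRatBN7.2. These are rat sequences, and the hybrid also carries mouse copies. *Hmgcs1* and *Idi1* are shown as standard SREBP-2 target genes, *Mvk* as one of the members with the most CCAAT letters, and *Lipa* because it passed the test. The last 2 were chosen after their values were seen. The promoter of *Sqle* was not analysed here. Each sequence runs 5′ to 3′ on the strand of its gene and ends at the base before the start, and capitals mark CCAAT or, on the other strand, ATTGG.
Hmgcs1, chr2:53382054-53382303, plus strand: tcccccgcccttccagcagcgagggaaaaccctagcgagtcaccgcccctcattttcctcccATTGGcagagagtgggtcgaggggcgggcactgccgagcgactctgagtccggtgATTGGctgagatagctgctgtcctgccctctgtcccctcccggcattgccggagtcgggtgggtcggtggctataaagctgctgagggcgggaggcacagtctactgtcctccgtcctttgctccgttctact
Idi1, chr17:66547525-66547774, minus strand: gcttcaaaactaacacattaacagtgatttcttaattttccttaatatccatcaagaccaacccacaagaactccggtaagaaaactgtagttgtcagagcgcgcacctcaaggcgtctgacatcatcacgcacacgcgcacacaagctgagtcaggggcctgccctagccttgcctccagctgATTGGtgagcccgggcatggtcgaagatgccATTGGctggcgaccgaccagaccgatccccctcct
Mvk, chr12:47819504-47819753, minus strand: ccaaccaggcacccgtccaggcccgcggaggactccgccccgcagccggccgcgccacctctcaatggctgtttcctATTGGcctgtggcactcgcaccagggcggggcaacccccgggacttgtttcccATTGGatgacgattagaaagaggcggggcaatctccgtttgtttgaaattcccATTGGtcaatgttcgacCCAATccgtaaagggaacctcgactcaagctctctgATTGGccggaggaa
Lipa, chr1:241470741-241470990, minus strand: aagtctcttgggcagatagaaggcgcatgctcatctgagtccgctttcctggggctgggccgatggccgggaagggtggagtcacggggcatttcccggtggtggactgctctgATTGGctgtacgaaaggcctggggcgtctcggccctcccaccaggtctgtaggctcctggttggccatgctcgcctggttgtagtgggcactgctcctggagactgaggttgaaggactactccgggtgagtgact

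These windows hold the CCAAT letters 2 times for *Hmgcs1* and for *Idi1*, 5 times for *Mvk* and 1 time for *Lipa*. Counted on both strands, CCAAT was present in 23 of 32 member promoters (71.9%), against 34.3% of 27457 gene promoters and 36.6% of the 9363 promoters of tested genes. *Nsdhl* also held 5 copies, and *Hsd17b7* and *Msmo1* 3 each. The GC box letters GGGCGG were present in 75.0% of member promoters, 32.4% of all and 59.6% of tested genes. The E-box letters CACGTG were present in 6.25%, 5.79% and 8.45%. The sterol regulatory letters TCACNCCAC, with N any base, were in 0 of the 32 windows and in 0.976% of all promoters, which says only that these letters are not in these windows. A match is a description of the letters and not a bound site.

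Wnt3a raised *Lipa*, and no other gene of the set passed the test against control. *Lipa* stood at 19.6, 21.2 and 20.4 FPKM in the 3 control libraries and at 24.5, 23.7 and 24.3 FPKM in the 3 Wnt3a libraries. All Wnt3a libraries were above all control libraries. The log2 fold change was 0.24 (SE 0.039, 95% interval 0.16 to 0.33), with an adjusted p of 0.0235 in limma on log2(FPKM + 0.1), adjusted over the 11451 tested genes. The call was lost when only these groups were fitted, with an adjusted p of 0.0893, and when control replicate 1, control replicate 3, Wnt3a replicate 1 or Wnt3a replicate 2 was left out, with adjusted p values of 0.1, 0.0758, 0.094 and 0.0563 and log2 fold changes of 0.21 to 0.26.

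With both agents *Lipa* lay between. It stood at 22.1, 23.2 and 22.9 FPKM in the 3 libraries with menthol and Wnt3a, and at 20.5, 20.8 and 21.3 FPKM with menthol alone. The libraries with both agents were all above those of control and of menthol and all below those of Wnt3a alone. Averaged over the absence and presence of menthol, with 6 libraries against 6, the effect of Wnt3a on *Lipa* was 0.18 on the log2 scale (SE 0.027, adjusted p = 0.00529 in limma), and this call held under every setting tried except the added demand of a 2-fold change. The difference between the effects of Wnt3a with and without menthol was -0.12 (95% interval -0.24 to -0.0038, adjusted p = 0.715 in the limma fit), so a dependence on menthol was not shown.

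Single comparisons of *Lipa* with both agents did not pass. Against control the log2 fold change was 0.15 (adjusted p = 0.0908 in limma, and 0.0467 with limma voom on the recovered reads), against menthol 0.12 (adjusted p = 0.462) and against Wnt3a -0.09 (adjusted p = 0.307). Menthol alone differed from control in *Lipa* by 0.03 (95% interval -0.05 to 0.11). *Lipa* is also abundant in macrophages, and of 8 macrophage markers 3 had a mean of at least 0.5 FPKM. The summed level of all 8 was 10.9 to 11.5 FPKM in control and 11.2 to 12.6 FPKM in Wnt3a libraries, most of it from *Cd14*. Of the 3 markers above the limit, 1 was higher and 2 were lower with Wnt3a than in control. *Csf1r* lay between 0.768 and 1.32 FPKM and *Cd68* between 0.701 and 1.81 FPKM over all libraries. *Ptprc* and *Adgre1* were at most 0.01025 and 0.0159 FPKM in any library. *Isl1* rose with Wnt3a by 0.50 on the log2 scale (adjusted p = 0.0121 in limma). The part of either in the *Lipa* result was not tested.

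**Figure D2:**
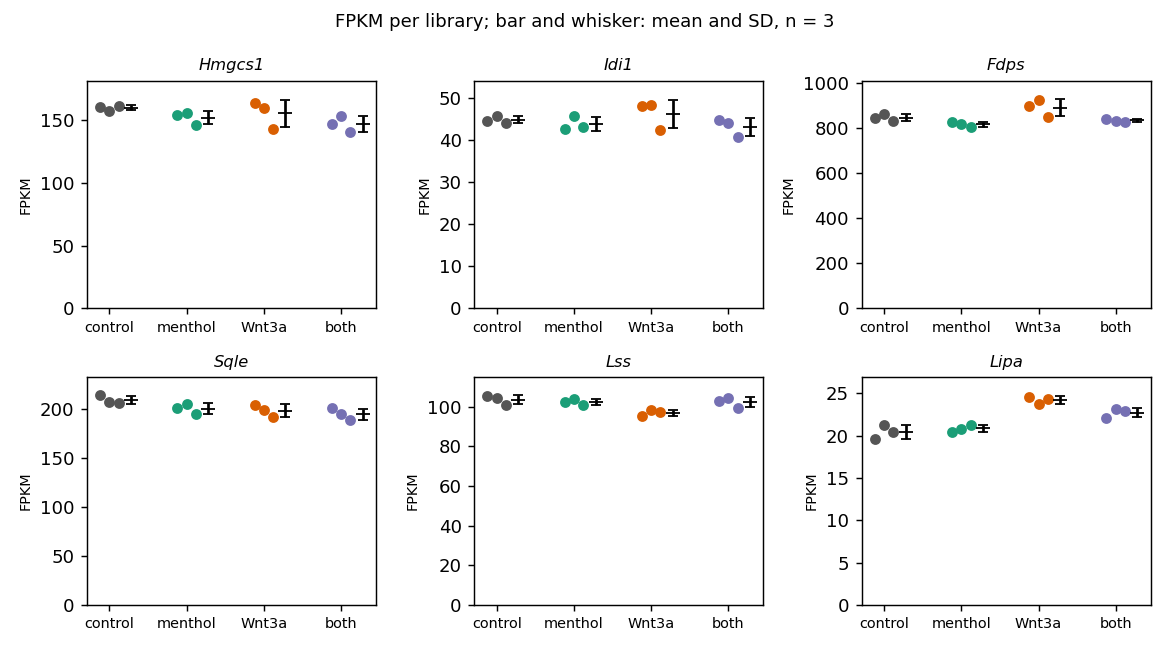
FPKM of 6 genes in each library, with the group mean and SD beside the points (n = 3) and axes that start at 0. The Wnt3a libraries of *Lipa* lie at 23.7 to 24.5 FPKM, above the control libraries at 19.6 to 21.2 FPKM, whereas the other 5 genes differ little between groups.

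Among the enzymes of synthesis, the differences with Wnt3a were a few percent and did not pass. *Lss* stood at 105, 104 and 101 FPKM in control and at 95.4, 98.4 and 97.1 FPKM with Wnt3a (log2 -0.09, adjusted p = 0.145 in limma), with no overlap. *Sqle*, which adds the epoxide that lanosterol synthase closes into rings, stood at 213, 207 and 205 FPKM in control and 204, 199 and 191 FPKM with Wnt3a (log2 -0.07, adjusted p = 0.296 in limma). *Hmgcs1* overlapped, with 161, 157 and 161 FPKM in control and 163, 159 and 143 FPKM with Wnt3a (log2 -0.04, 95% interval -0.14 to 0.06). *Idi1* overlapped too, at 44.7, 45.8 and 44.1 FPKM in control and 48.1, 48.3 and 42.4 FPKM with Wnt3a. For both, the third Wnt3a library was the low one, and without it *Hmgcs1* had a log2 fold change of 0.0153 (adjusted p = 0.872 in limma).

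Over the 37 tested genes, 1 passed in Wnt3a against control, where 0.437% of all tested genes did. At an unadjusted p under 0.05 there were 9 (24.3%), with 15.1% of all tested genes past that limit. Of these, 2 were higher and 7 lower, against 8.17% and 6.91% of all tested genes. For 9 genes (24.3%) the groups did not overlap, with 20.2% of all tested genes apart, and 1 of them was higher and 8 lower, against 10.1% of all tested genes in either direction. Both of the higher ones, *Lipa* and *Fdps*, were outside the steps from farnesyl diphosphate to cholesterol. The median log2 fold change was -0.026, against 0.004 over all tested genes, and 23 of the 37 (62.2%) had a negative value, with 48.4% of all tested genes negative. The 95% interval lay within 1.2-fold for 30 of the 37 genes and within 1.5-fold for all 37, so in these libraries a change of 1.5-fold or more in any tested member was outside its interval.

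Menthol alone gave no member that passed. The count was 0 of 37 by limma, where 0.105% of all tested genes passed, with 4 (10.8%) at an unadjusted p under 0.05 where 9.34% of all tested genes were, a share close to the background, and limma voom on the recovered reads also gave 0. Those 4 were *Mvk*, *Hsd17b7*, *Dhcr7* and *Pmvk*, of which *Dhcr7* was named after its value was seen, and all were lower, as were 4.82% of all tested genes at that limit. *Mvk*, the mevalonate kinase, stood at 44.8, 44.2 and 45.6 FPKM in control and 40.7, 41.8 and 39.9 FPKM with menthol (log2 -0.14, SE 0.045, adjusted p = 0.377 in limma). All 3 menthol libraries of *Mvk* were below all controls. *Hsd17b7*, a 3-keto sterol reductase, stood at 14.5, 14.2 and 13.8 FPKM in control and 14.1, 12.3 and 12.4 FPKM with menthol (log2 -0.14, adjusted p = 0.443 in limma), and here 1 menthol library was inside the control range.

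The feedback-controlled genes did not pass either. *Hmgcs1* was at 154, 155 and 146 FPKM with menthol, below all 3 controls (log2 -0.08, 95% interval -0.18 to 0.02), and *Sqle* at 201, 205 and 194 FPKM, also below (log2 -0.06, 95% interval -0.13 to 0.01). *Idi1* was at 42.6, 45.7 and 43.2 FPKM and overlapped with control (log2 -0.03). In the whole set 7 genes (18.9%) did not overlap between menthol and control, all lower, with 15.9% of all tested genes apart and 8.38% apart and lower. The median log2 fold change was -0.022 and 26 of 37 (70.3%) were negative, against 50.9% of all tested genes.

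**Figure D3:**
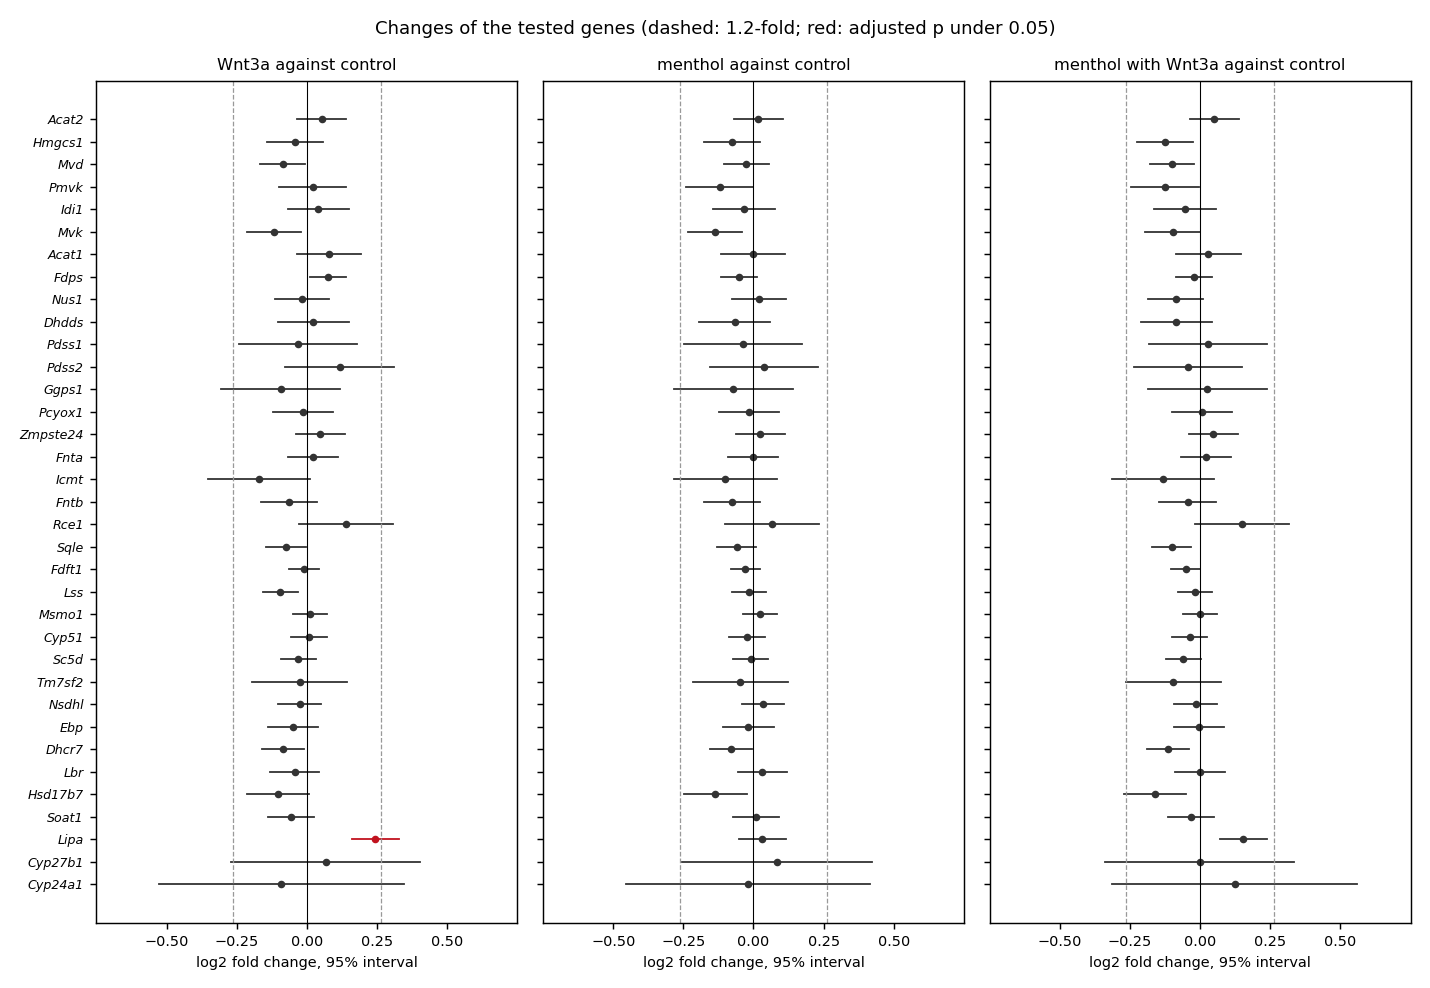
Log2 fold change (points) with its 95% interval (lines) of 35 of the 37 tested genes for 3 comparisons against the same control libraries, in the order of the route. The dashed lines mark 1.2-fold, and *Lipa* with Wnt3a (0.24) is the only point in red, the color of an adjusted p under 0.05.

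With both agents against control the count that passed was again 0 of 37 by limma (0.830% of all tested genes passed), with 7 at an unadjusted p under 0.05 (13.5% of all tested genes). Limma voom on the recovered reads passed 1, *Lipa*, where it passed 2.30% of all tested genes. The groups did not overlap for 13 genes (35.1%), 1 higher and 12 lower, with 20.5% of all tested genes apart, 10.5% higher and 9.98% lower. *Dhcr7*, the last enzyme of one branch to cholesterol, stood at 35.5, 38.6 and 35.9 FPKM in control and 33.9, 33.4 and 34.2 FPKM with both (log2 -0.11, SE 0.035, adjusted p = 0.156 in limma). *Sqle* lay below the controls at 200, 194 and 189 FPKM (log2 -0.10, adjusted p = 0.181 in limma). *Hmgcs1* was at 147, 153 and 140 FPKM (log2 -0.12, adjusted p = 0.251 in limma), with all libraries below the controls. *Idi1* overlapped (log2 -0.05, adjusted p = 0.708). The median log2 fold change was -0.038, 27 of 37 (73.0%) were negative where 48.1% of all tested genes were, and no member was shown to change by 1.5-fold, since all 37 intervals lay within that limit.

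Adding menthol to Wnt3a passed 0 of 37 by limma (0.0524% of all tested genes), 4 at an unadjusted p under 0.05 (14.5% of all tested genes), and 0 by limma voom. The 4 were *Fdps*, *Lss*, *Pmvk* and *Lipa*. *Fdps* stood at 898, 926 and 852 FPKM with Wnt3a and at 843, 833 and 828 FPKM with both (log2 -0.09, SE 0.030, adjusted p = 0.193 in limma). *Lss* was higher with both, at 103, 104 and 99.4 FPKM against 95.4, 98.4 and 97.1 FPKM (log2 0.08, adjusted p = 0.259 in limma), and 2 of its 3 values with both lay in the control range. Both groups of *Fdps* and of *Lss* were apart, as were 8 genes in all (21.6%, 2 higher and 6 lower), a share close to the background, with 17.7% of all tested genes apart, 9.11% higher and 8.57% lower. The median log2 fold change was -0.012.

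Adding Wnt3a to menthol also passed 0 of 37 by limma (0.0961% of all tested genes) and by limma voom, with 2 at an unadjusted p under 0.05 (6.72% of all tested genes), *Lipa* and *Nus1*. *Nus1*, the partner subunit of the dolichol chain enzyme, stood at 21.3, 23.7 and 22.2 FPKM with menthol and 21.0, 19.9 and 21.5 FPKM with both (log2 -0.11, adjusted p = 0.67 in limma), and the groups overlapped. Of 37 genes 3 (8.11%) were apart (11.3% of all tested genes), *Lipa* and *Fdps* higher (5.97% of all tested genes) and *Nsdhl*, named after its value was seen, lower (5.31%). The median log2 fold change was -0.020.

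No member showed a dependence of the Wnt3a effect on menthol. The interaction passed 0 of 37 genes by limma and by limma voom, as it did 0 of all tested genes (0%), with 3 members at an unadjusted p under 0.05 (6.99% of all tested genes). These were *Mvk* (0.16), *Lss* (0.09) and *Lipa* (-0.12), each with an adjusted p of 0.715 in limma. *Mvk* was at 38.2, 43.7 and 42.4 FPKM with Wnt3a and 43.4, 40.6 and 41.9 FPKM with both, so 1 Wnt3a library lay apart from the rest. The median interaction was -0.005, with 18 genes positive and 19 negative, and 49.5% of all tested genes negative.

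The averages over 6 libraries per arm gave narrower intervals. For Wnt3a, *Lipa* passed alone (0.803% of all tested genes passed), with 8 at an unadjusted p under 0.05 (14.2%). *Lipa* was also the only member whose 6 libraries with Wnt3a were all above the 6 without, which held for 0.629% of all tested genes. *Mvd*, which makes isopentenyl diphosphate, was lower on average by -0.08 on the log2 scale (SE 0.026, adjusted p = 0.173 in limma), at 71.8, 74.3 and 71.8 FPKM with Wnt3a, 72.3, 71.4 and 72.2 FPKM with both, 79.2, 75.0 and 77.3 FPKM in control and 75.7, 80.1 and 71.8 FPKM with menthol. The lowest menthol library reached into the range with Wnt3a.

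For menthol, 0 of 37 passed by limma (1.15% of all tested genes passed), with 5 at an unadjusted p under 0.05 (15.5%), all lower (8.14% of all tested genes). They were *Fdps* (log2 -0.07, SE 0.021, adjusted p = 0.118), *Pmvk* (log2 -0.13, SE 0.039, adjusted p = 0.129), *Hsd17b7*, *Hmgcs1* and *Dhcr7*. Limma voom on the recovered reads passed 0 with TMM factors, where it passed 2.71% of all tested genes. Without factors it passed 1, *Fdps* (adjusted p = 0.0416), where it passed 303 of the 11451 tested genes. *Fdps* also passed without Wnt3a replicate 3 (adjusted p = 0.0303 in limma). *Fdps* was at 827, 818 and 808 FPKM with menthol and at 846, 862 and 833 FPKM in control. With menthol all libraries of *Fdps* were below the partner group without it, both in the absence and in the presence of Wnt3a.

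*Pmvk* was at 51.1, 48.5 and 49.8 FPKM in control, 48.5, 45.0 and 44.0 FPKM with menthol, 48.8, 56.1 and 47.1 FPKM with Wnt3a and 46.6, 45.3 and 45.1 FPKM with both. The second Wnt3a library was the highest of all and the first menthol library reached the control range. The 95% intervals of both averages lay within 1.2-fold for 36 of 37 genes, against 82.3% of all tested genes for Wnt3a and 81.7% for menthol, and the exception was *Cyp24a1*, at 59 to 121 reads per library.

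Taken library by library, the 21 genes from acetyl-CoA to cholesterol (*Fdps* and the prenyl branch not counted) sat slightly higher in control cells. Each gene's value was set against its own mean over the 12 libraries on the log2(FPKM + 0.1) scale, and the median of these deviations was 0.056, 0.038 and 0.037 in the 3 control libraries. With menthol it was 0.015, 0.016 and -0.041, with Wnt3a 0.001, -0.012 and -0.028, and with both 0.001, -0.027 and -0.037. All 3 controls were above all 9 stimulated libraries, while the stimulated groups overlapped with each other. The median over all tested genes lay between -0.005 and 0.013 in every library.

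The number of the 21 genes above their mean was 15, 16 and 19 in the controls and 3 to 14 in the other libraries. The pattern is small, no test was made of a median over genes that share a library, and all comparisons against control use the same 3 control libraries, so that the lower values in the 3 stimulated groups are not separate observations. The summed level of 9 fibroblast markers was also highest in control, at 286 to 293 FPKM in control, 265 to 270 FPKM with menthol, 276 to 280 FPKM with Wnt3a and 263 to 270 FPKM with both, and *Col1a2* was lower with both agents than in control (log2 -0.16, adjusted p = 0.02 in limma). Their part in the sterol gene values was not tested.

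**Figure D4:**
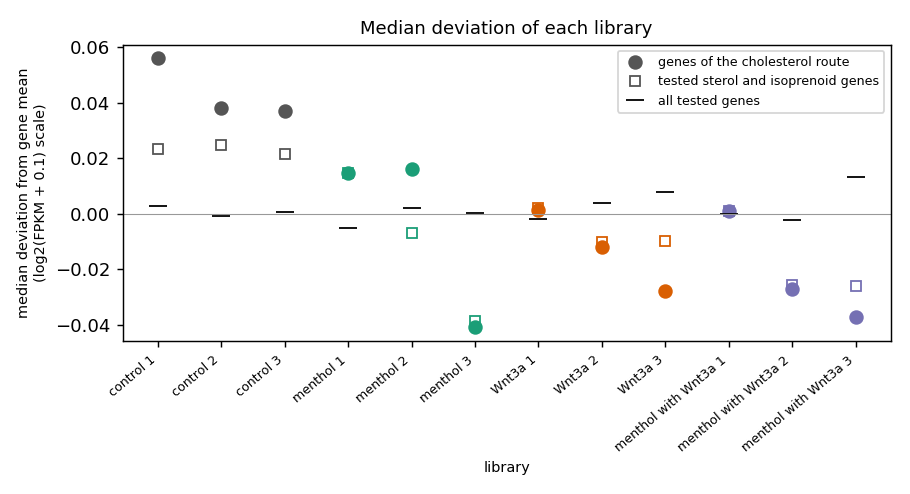
Median deviation from the gene mean on the log2(FPKM + 0.1) scale in each library, for the genes of the cholesterol route (filled), all tested sterol and isoprenoid genes (open squares) and all tested genes (dashes). The 3 control libraries lie at 0.037 to 0.056 and the other 9 at or below 0.016 for the cholesterol route, while the dashes stay between -0.005 and 0.013.

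By role, the steps from lanosterol to cholesterol had 8 of 10 genes with a negative log2 fold change for Wnt3a against control, 7 of 10 for menthol and 10 of 10 for both agents (median -0.043), with 48.1% of all tested genes negative in the last. Of those 10, *Lbr* and *Msmo1* lay within 0.001 of 0. The averages had 10 of 10 negative for Wnt3a (median -0.038) and 5 of 10 for menthol, and adding menthol to Wnt3a 6 of 10. None of these genes passed in limma or limma voom in any of the 8 comparisons. At an unadjusted p under 0.05 limma had 0 to 2 of the 10, the 2 in comparisons where 9.34% to 15.5% of all tested genes were. Limma voom had 0 to 3, the 3 in Wnt3a against control, where 1854 of 11451 tested genes were with TMM factors. The 3 genes from farnesyl diphosphate to lanosterol were negative in all 3 comparisons against control, with medians of -0.075 for Wnt3a, -0.029 for menthol and -0.051 for both. The mevalonate genes had 4 of 8 negative for Wnt3a, 7 of 8 for menthol and 6 of 8 for both. The 6 genes of protein farnesylation were evenly split for Wnt3a, at 3 higher and 3 lower, with a median of 0.004. The map of deviations shows this as paler and bluer cells to the right of the 3 control columns for many genes, while *Lipa*, *Rce1*, *Acat2* and *Zmpste24* had their lowest group mean in control.

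**Figure D5:**
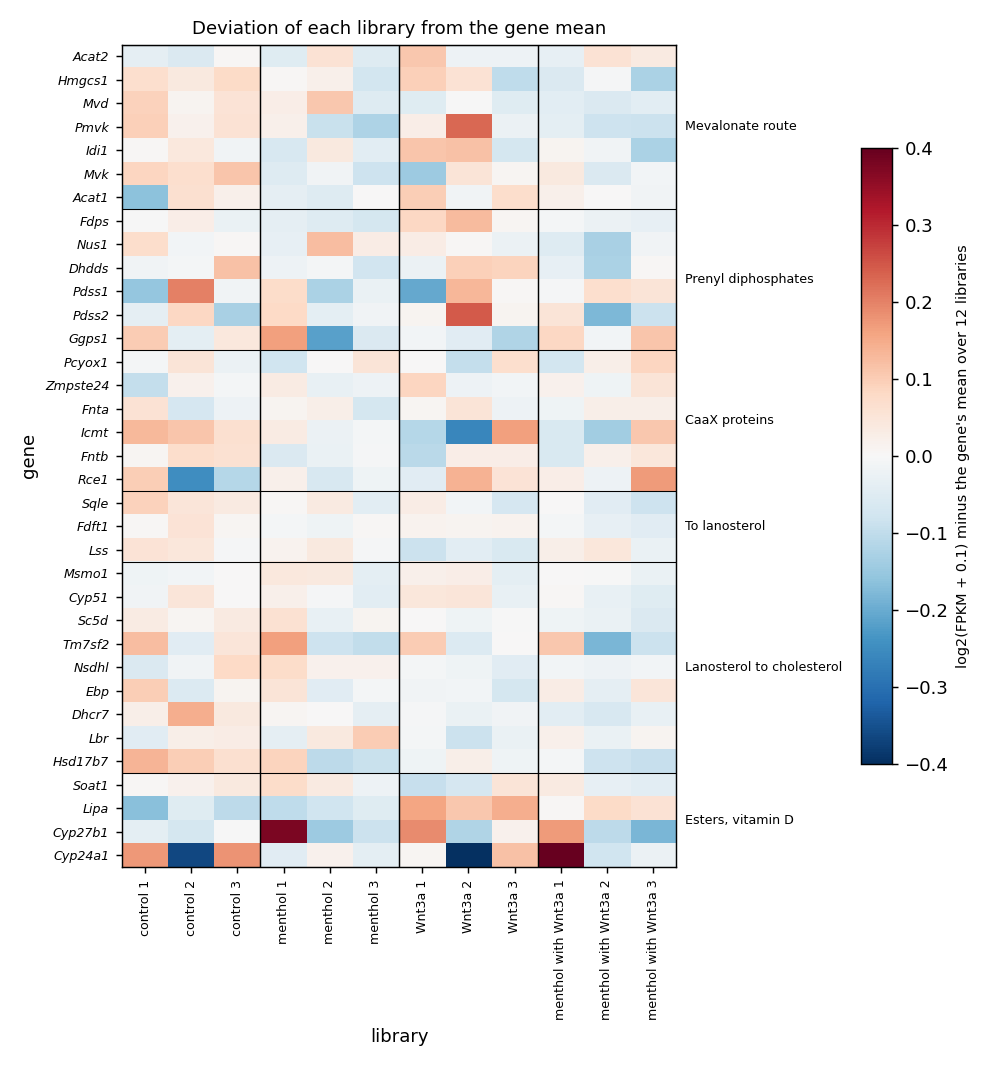
Deviation of each library (columns) from the gene's mean over 12 libraries (rows, 35 of the 37 tested genes in the order of the route) on the log2(FPKM + 0.1) scale, red above and blue below the mean. *Lipa* is blue in the control and menthol columns and red in the Wnt3a columns, and the strongest single cells belong to *Cyp27b1* and *Cyp24a1*, the genes with the fewest reads.

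Genes that regulate the route or handle its products gave few calls. Of 13 genes of the SREBP machinery, 1 of which is also a member of the set, 0 passed in any of the 8 comparisons by limma, with 0 to 4 at an unadjusted p under 0.05 (the 4 in menthol with Wnt3a against Wnt3a, where 14.5% of all tested genes were), and limma voom passed 1, *Srebf1*, in the menthol average, where it passed 2.71% of all tested genes. *Srebf2*, which encodes SREBP-2, stood at 57.7, 55.4 and 52.5 FPKM in control, 50.8, 53.3 and 51.1 FPKM with menthol, 50.7, 48.5 and 53.6 FPKM with Wnt3a and 50.8, 52.8 and 53.1 FPKM with both. The highest values were those of 2 control libraries, and no comparison passed (log2 -0.12 for Wnt3a and -0.09 for menthol against control, adjusted p of 0.214 and 0.53 in limma). *Insig1*, a sterol-sensing retention protein and SREBP target, lay between 183 and 200 FPKM in all 12 libraries.

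Of 15 tested genes of sterol uptake and transport, 0 passed by limma in any comparison, with 0 to 5 at an unadjusted p under 0.05 (the 5 in Wnt3a against control, where 15.1% of all tested genes were). Limma voom passed 2 in Wnt3a against control, where it passed 2.49% of all tested genes, the reelin and lipoprotein receptor *Lrp8* among them, which was named after its call was seen.

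The cholesterol exporter *Abcg1* rose with Wnt3a. It was the only 1 of 10 tested genes listed as targets of the nuclear receptor LXR that passed by limma. The call was in Wnt3a against control, where 0.437% of all tested genes passed. *Abcg1* stood at 1.12, 0.90 and 0.80 FPKM in control and 1.49, 1.56 and 1.94 FPKM with Wnt3a (log2 0.76, SE 0.15, adjusted p = 0.0453 in limma). With both agents it stood at 1.35, 1.15 and 1.38 FPKM. All Wnt3a libraries were above all others. The Wnt3a average of *Abcg1* did not pass in limma (log2 0.46, adjusted p = 0.0596) and passed in limma voom, which passed 2.37% of all tested genes there. Limma voom also passed the exporter *Abca1* in Wnt3a against control, where it passed 2.49% of all tested genes. At an unadjusted p under 0.05 in limma there were 0 to 4 of the 10, with 4 in menthol with Wnt3a against Wnt3a, where 14.5% of all tested genes were.

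Of 17 tested genes of fatty acid synthesis, the desaturase *Fads1* was lower with both agents than in control, at 147, 144 and 150 FPKM against 162, 163 and 159 FPKM (log2 -0.13, adjusted p = 0.0443 in limma). In that comparison 0.83% of all tested genes passed by limma. The desaturase *Scd* (log2 -0.12, adjusted p = 0.036) and the malic enzyme *Me1* (log2 -0.15, adjusted p = 0.0318) were lower in the limma average for menthol, where 1.15% of all tested genes passed. The menthol average had 7 of the 17 at an unadjusted p under 0.05, with 15.5% of all tested genes past that limit. Limma voom passed *Acaca* and *Fasn* in Wnt3a against control, where it passed 2.49% of all tested genes. It passed *Elovl6*, *Fads1* and *Scd* with both agents against control, where it passed 2.30% of all tested genes. In the menthol average it passed *Fads1*, *Me1* and *Scd*, and 2.71% of all tested genes. *Abca1*, *Acaca*, *Fasn* and *Elovl6* were named after their calls were seen. The 19 tested genes that use prenyl groups or build ubiquinone had 0 passing by limma or limma voom. At an unadjusted p under 0.05 there were 0 to 4 (the 4 in the menthol average, where 15.5% of all tested genes were by limma).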

How the data were processed

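RNA of ND7/23 cells was analysed in 12 libraries, 3 per group, with group and replicate number taken from the sample labels. Total RNA was extracted, and the libraries made from it were sequenced as 150 bp read pairs, under a methods heading of mRNA sequencing. The submitters' processing notes name fastp, HISAT, HTSeq, DESeq2, R 3.2.0 and the build mRatBN7.2, while the versions of the other tools, the annotation and strand setting are not given in the sources used here. FPKM values per gene and library were deposited by the authors, without pooling. FPKM divides by gene length and library total, so a rise of abundant genes lowers the others, and without a known strand setting reads of overlapping antisense genes cannot be told apart.

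Because FPKM steps are whole multiples of 1 read, reads were recovered for 21556 of 21556 genes (relative tolerance 1e-06), which gives the depth. Members were the genes annotated to the steroid or terpenoid backbone pathway. The members, the lists by role, the lists of regulators, uptake, LXR targets, fatty acid synthesis and prenyl use, and the tests were chosen with earlier results of these data known. Values were tested with limma 3.58.1 in R 4.3.3 on log2(FPKM + 0.1) for 11451 genes with a mean of at least 0.5 FPKM, all groups in 1 fit with a variance trend, Benjamini-Hochberg adjustment over all tested genes and a threshold of 0.05. Fold changes are on this scale. The 8 comparisons were 5 pairs, the interaction and the averaged effect of each agent.

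Tested members that passed, *Sqle*, *Hmgcs1* and *Idi1*, and in each comparison the 2 members with the smallest p were given with values in every library. For genes outside the pathways, *Srebf1*, *Srebf2*, *Insig1* and those that passed were named. Some members and listed genes entered every count but are not reported here by name. Same-numbered replicates correlated in their deviations from the group means at -0.0551 to 0.153. They were not shown to be pairs, and low correlations over all tested genes cannot exclude shared handling. In every group replicate 3 had the lowest share of reads on the members. Alternatives were pseudocounts of 0.01 and 1, a minimum of 1 FPKM or none, median centring, a fit of only the groups compared, a replicate block, limma voom on the recovered reads with TMM factors, computed from their published formula, or none, a 2-fold criterion, and leaving out each library. Motifs were counted on both strands.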

Additional observations from a re-analysis of the deposited data

How the results depend on the processing

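The 8 counts of members passing were recomputed under 173 combinations of comparison and alternative, of which 161 stayed within 1.5 times the value reported. Of 664 values of single members, 654 kept their direction and side of the threshold. For Wnt3a against control the count went from 1 to 0 when only those groups were fitted and to 0 when a 2-fold change was also required, and it ran from 0 to 3 when single libraries were left out. It was 0 without control replicate 1, control replicate 3, Wnt3a replicate 1 or Wnt3a replicate 2, and 3 without Wnt3a replicate 3 (*Icmt* and *Lipa* among them). For menthol with Wnt3a against control the count went from 0 to 1, *Lipa*, with limma voom with TMM factors and likewise to 1 without factors. For the Wnt3a average it went to 0 with the 2-fold criterion and stayed at 1 when single libraries were left out. For the menthol average it went to 1, *Fdps*, with limma voom without factors and ran from 0 to 1 when single libraries were left out. *Hmgcs1* in Wnt3a against control ran from -0.0815 to 0.0153 on the log2 scale when single libraries were left out and was positive without Wnt3a replicate 3. The medians over the members were small and moved. When single libraries were left out, the median of the interaction ran from -0.0276 (without menthol replicate 3) to 0.0134 (without menthol replicate 2), and it was also positive without menthol replicate 1, control replicate 1, control replicate 2 or Wnt3a replicate 1. That of menthol with Wnt3a against menthol ran from -0.0302 to -0.0028, the last without menthol replicate 1, and that of the Wnt3a average from -0.0297 (without menthol replicate 2) to -0.00519 (without menthol replicate 1). For menthol with Wnt3a against Wnt3a it was -0.023 to -0.0238 without any 1 of the Wnt3a libraries, for menthol against control -0.0117 without menthol replicate 3, and for the menthol average -0.009 without menthol with Wnt3a replicate 2. Wnt3a and both agents against control stayed within 1.5 times, at -0.0337 to -0.0184 and -0.0543 to -0.0262. Except for the interaction, every median stayed negative when single libraries were left out. The cause was not tested.

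Same-numbered libraries were not shown to be pairs. With the replicate block the count stayed at 1 for Wnt3a against control and for the Wnt3a average and at 0 for the other 6 comparisons, so the block changed no call of a count. The 95% intervals lay within 1.2-fold for 29 to 36 of the 37 members, depending on the comparison, and members under 0.5 FPKM were not tested at all.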
